A study of Mus musculus with 6 samples.

Results

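The expression of 10 genes of the vascular endothelium was described in all 6 RNA-seq libraries of newborn mouse kidney and ureter. The 10 genes were Pecam1, Kdr, Flt1, Cdh5, Tek, Tie1, Emcn, Plvap, Ehd3 and Eng. They were chosen by symbol, and all 10 were found among the 24532 genes of the deposited table. The study compared Ahnak knockout (KO) mice, in which exon 5 of Ahnak was disrupted, with wild-type (WT) mice at postnatal day 1 (PN1). There were 2 WT kidney, 2 Ahnak KO kidney, 1 WT ureter and 1 Ahnak KO ureter libraries. Per the study's methods each RNA sample held several kidneys or ureters, so a library is a pool of organs. The strain, the sex and the litter of the mice were not given in the sources used here. The titles of both ureter libraries name the kidney, while their source field names the ureter. Markers of both tissues followed the source field. The summed level of 7 urothelial genes was 89.4 to 107 TPM (a transcript level scaled for gene length and library) in the kidney libraries, 8739 TPM in WT ureter and 8100 TPM in Ahnak KO ureter. The podocyte gene Nphs1 was at 12.1 to 19.1 TPM in kidney and was listed at 0 in both ureter libraries.

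Endothelial cells line blood and lymphatic vessels. Their growth is steered by vascular endothelial growth factor (VEGF), which signals through the receptor kinases encoded by Kdr and Flt1, and their stability by angiopoietins, which signal through the receptor encoded by Tek. Cadherin 5 and PECAM1 hold neighbouring endothelial cells together. The kidney contains several specialised beds, among them the fenestrated glomerular and peritubular capillaries, whereas the ureter wall is supplied by a capillary plexus below the urothelium and by small arteries and veins of its muscle coat. In whole tissue, fewer endothelial cells and less RNA per endothelial cell cannot be told apart, so every value below is a level per tissue RNA.

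The libraries held 36410246 (Ahnak KO ureter) to 66095616 estimated counts, and the smallest count of any of the 10 genes was 211, for Ehd3 in Ahnak KO ureter. In 2 of the libraries a feature stood apart. Ribosomal RNA (Rn45s) took 8.06% of the counts in Ahnak KO ureter and 0.496% to 0.632% in the other 5 libraries. Ahnak KO kidney replicate 1 held 176348 Xist counts, against 17 to 36 elsewhere, and 7755 genes at 0, against 6415 to 6706 in the other kidney libraries. Ahnak, the targeted gene, was at 27.7 and 24.7 TPM in WT kidney, 20.6 and 22.1 TPM in Ahnak KO kidney, 77.5 TPM in WT ureter and 88.0 TPM in Ahnak KO ureter. Its kidney log2 fold change was -0.47 (SE 0.0961, edgeR's quasi-likelihood test with Benjamini-Hochberg adjustment, unadjusted p = 0.00265, adjusted p = 0.9999). No full loss of Ahnak transcript was thus seen in the Ahnak KO libraries of either tissue. The deposited level covers the whole gene and does not single out exon 5, so the genotype labels could not be checked with it. In ureter the order depended on the scale, since Ahnak was at 728 CPM in WT and 634 CPM in Ahnak KO ureter in counts scaled for library only (CPM, with the scaling factors used in the tests). Group names therefore follow the labels.

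The 10 genes lie on 7 chromosomes of the mouse genome (GRCm38.p6, RefSeq). The VEGF receptor genes share a chromosome, with Kdr at chr5:75932827-75979072 and Flt1 at chr5:147561604-147726438, and so do the TIE receptor genes, with Tek at chr4:94739086-94874976 and Tie1 at chr4:118471191-118489849. Cdh5 lies at chr8:104101613-104144504 and Plvap at chr8:71497753-71511806. The others are Pecam1 at chr11:106654213-106715281, Emcn at chr3:137341062-137431069, Ehd3 at chr17:73804841-73832093 and Eng at chr2:32646595-32682669. Emcn, Ehd3 and Tie1 were lower in ureter and have a promoter window in the RefSeq table used here. The 250 bases before the start used for that window are shown because these genes shared that difference. For Emcn that start lies inside the gene span given above, so the last bases of its window overlap the span. The windows are Emcn (chr3:137340828-137341077, plus strand), Ehd3 (chr17:73804591-73804840, plus strand) and Tie1 (chr4:118489850-118490099, minus strand). Capitals mark AGGAAG and CGGAAG, 2 forms of the core bound by ETS transcription factors, or their reverse complements CTTCCT and CTTCCG.
Emcn: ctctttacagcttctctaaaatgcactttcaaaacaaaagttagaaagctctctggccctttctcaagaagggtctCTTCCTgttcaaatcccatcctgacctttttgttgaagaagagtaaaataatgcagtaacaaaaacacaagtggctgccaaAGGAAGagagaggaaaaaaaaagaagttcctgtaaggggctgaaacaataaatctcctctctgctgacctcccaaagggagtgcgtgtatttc
Ehd3: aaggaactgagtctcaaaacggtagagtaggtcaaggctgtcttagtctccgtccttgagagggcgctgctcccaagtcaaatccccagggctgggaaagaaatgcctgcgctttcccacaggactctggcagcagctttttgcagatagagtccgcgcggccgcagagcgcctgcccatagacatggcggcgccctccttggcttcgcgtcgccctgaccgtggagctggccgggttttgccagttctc
Tie1: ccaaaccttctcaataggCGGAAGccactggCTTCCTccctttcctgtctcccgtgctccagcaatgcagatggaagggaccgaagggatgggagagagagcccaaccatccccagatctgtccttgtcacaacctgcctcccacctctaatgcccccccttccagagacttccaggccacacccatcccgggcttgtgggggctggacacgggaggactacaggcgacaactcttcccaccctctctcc

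Windows were found for 7 of the 10 genes, namely these 3 and Kdr, Flt1, Tek and Eng. At least 1 of the 2 letter strings was present in 4 of the 7, in Flt1, Tie1, Emcn and Eng. The same strings were present in 39.2% of all 32851 windows of this length. The window of Ehd3, the gene that was lowest in ureter relative to kidney, held neither. Emcn, Ehd3 and Tie1 therefore did not share these strings in this window, and the promoter of Plvap, the other gene lower in ureter, was not analysed here. GC content of the 3 windows was 40.8% for Emcn, 60.0% for Ehd3 and 60.4% for Tie1.

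In kidney the 10 genes ranged over more than an order of magnitude. Emcn, which encodes the sialomucin endomucin of capillaries and veins, had the highest level, at 181 ± 10.3 TPM (SD, n = 4 libraries of both genotypes). Plvap, whose product forms the diaphragms of fenestrae and caveolae, followed at 139 ± 20.5 TPM, and Pecam1 at 96.8 ± 5.90 TPM. Eng (60.4 ± 3.51 TPM), Cdh5 (59.7 ± 5.12 TPM) and Tie1 (58.0 ± 6.51 TPM) came next, and their ranges over the 4 libraries overlapped. Below them were Tek at 39.0 ± 6.03 TPM, Kdr at 29.3 ± 3.93 TPM, Ehd3 at 18.3 ± 0.598 TPM and Flt1 at 9.87 ± 1.74 TPM. Apart from the trio of Eng, Cdh5 and Tie1, no pair of neighbours in this order overlapped over the 4 kidney libraries. In WT ureter the order was Pecam1, Cdh5, Eng, Emcn, Plvap, Tie1, Tek, Kdr, Flt1 and Ehd3. Relative to the kidney order Emcn and Plvap stood 3 places lower and Cdh5 stood 3 places higher.

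**Figure D1:**
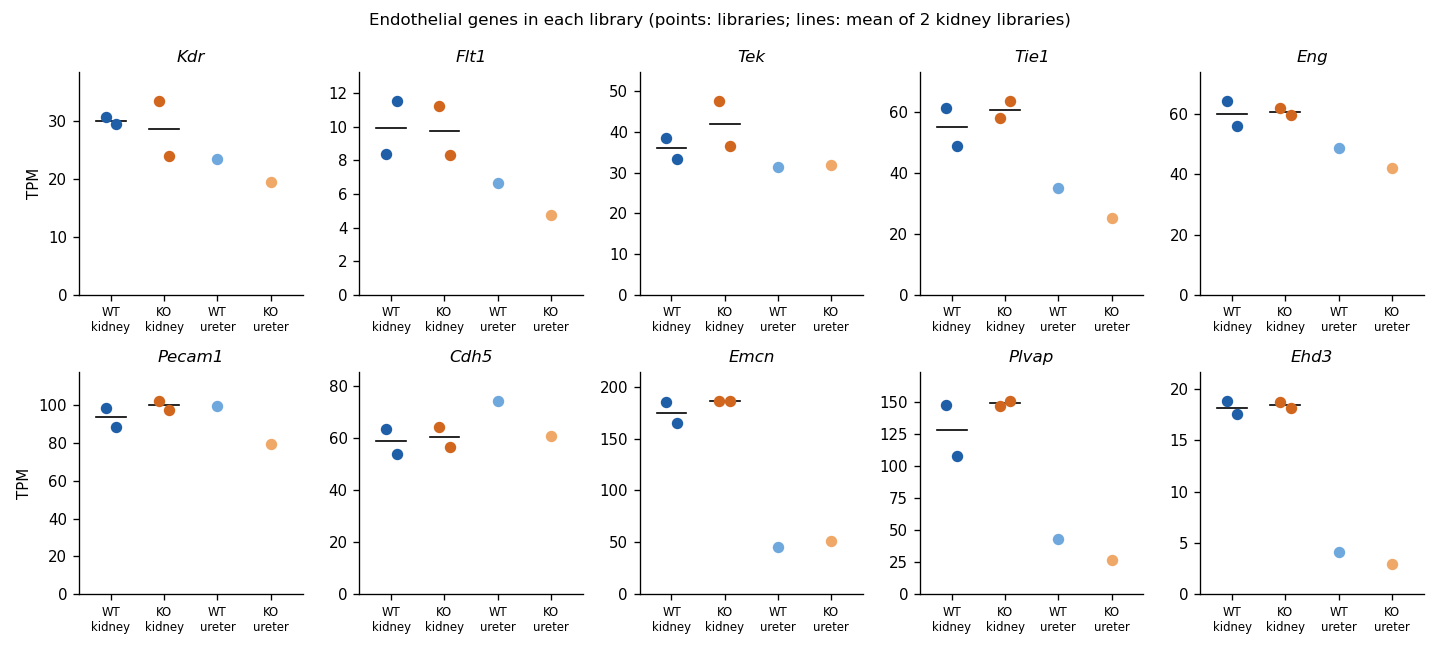
Level of each of the 10 endothelial genes (TPM, y axis from 0, own scale per gene) in each library, by genotype and tissue; lines are means of 2 kidney libraries. Emcn, Plvap and Ehd3 sat far lower in both ureter libraries than in the 4 kidney libraries, whereas Pecam1 and Cdh5 overlapped between tissues.

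The study asked what the loss of Ahnak changes in each organ. In kidney no difference between the libraries labelled Ahnak KO and WT was detected for any of the 10 genes. Genes were called where the adjusted p of edgeR's test was under 0.05, and called genes made up 0.0121% of the 16481 genes tested, or 2 genes that were lower and 0 that were higher. None of the 10 endothelial genes was called, and 0 of the 10 had an unadjusted p under 0.05, against 1.38% of all genes. DESeq2 called 44 genes and again 0 of the 10.

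The receptor genes illustrate the spread between kidney libraries. Kdr, the main signalling VEGF receptor, was at 30.5 and 29.4 TPM in WT and at 33.3 and 23.9 TPM in Ahnak KO kidney. Flt1, which binds VEGF with high affinity and also exists as a soluble decoy, was at 8.39 and 11.5 TPM in WT and 11.2 and 8.33 TPM in Ahnak KO kidney. For both genes the values of the 2 genotypes were interleaved. Their log2 fold changes were -0.04 for Kdr (95% interval -0.43 to 0.34) and 0.00 for Flt1 (95% interval -0.51 to 0.51). Tek, the angiopoietin receptor, was at 38.6 and 33.4 TPM in WT and 47.5 and 36.6 TPM in Ahnak KO kidney, a log2 fold change of 0.25 (95% interval -0.10 to 0.61). Tie1, the companion receptor of Tek without a firmly known ligand of its own, was at 61.4 and 48.9 TPM against 58.2 and 63.6 TPM, a log2 fold change of 0.18 (95% interval -0.18 to 0.53). Each pair of genotypes overlapped here too. Eng, a co-receptor for bone morphogenetic proteins 9 and 10 of the TGF-beta family, was at 64.2 and 55.9 TPM against 61.8 and 59.6 TPM, a log2 fold change of 0.05 (95% interval -0.22 to 0.33).

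The junction genes were as close. Pecam1 was at 98.8 and 88.5 TPM in WT and 102 and 97.6 TPM in Ahnak KO kidney, a log2 fold change of 0.13 (95% interval -0.12 to 0.38). Cdh5, the cadherin of endothelial adherens junctions, was at 63.6 and 54.1 TPM against 64.5 and 56.7 TPM, a log2 fold change of 0.07 (95% interval -0.22 to 0.37). The ranges of the genotypes overlapped for both.

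Of the 3 genes tied to particular vessel beds, Plvap had the widest spread in WT kidney. It was at 148 and 108 TPM in WT and at 147 and 151 TPM in Ahnak KO kidney, a log2 fold change of 0.25 (95% interval -0.14 to 0.64). Without WT kidney replicate 2, its lowest kidney library, the value was 0.04, and without WT kidney replicate 1 it was 0.50. Emcn was at 185 and 165 TPM in WT and close to 186 TPM in both Ahnak KO libraries, a log2 fold change of 0.12 (95% interval -0.13 to 0.38). Ehd3, a membrane-trafficking protein enriched in glomerular endothelium, was at 18.8 and 17.5 TPM against 18.7 and 18.2 TPM, a log2 fold change of 0.05 (95% interval -0.26 to 0.36). It had the narrowest spread of the 10 genes across the kidney libraries relative to its level. These intervals are given per gene without adjustment, and the interval of Plvap reached highest, to 0.64. With 2 libraries per genotype, the adjusted test could also miss differences larger than that. In simulated data of dispersion 0.05, the kidney test recovered 16.5% of changes of 1 on the log2 scale and 99.5% of changes of 2. That simulation was not matched to the spread of the 10 genes.

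The 10 kidney values were small and leaned upwards. For 9 of the 10 genes the fitted value was above 0, against 48.9% of all genes, and the median was 0.10 against -0.004 over all genes tested. Of the counts scaled by the trimmed mean of M values (TMM), both Ahnak KO libraries were above both WT libraries for 2 genes, Pecam1 and Emcn, while 12.8% of all genes showed this. None of the 10 showed the reverse, which 13.3% of all genes did. In TPM the first pattern held for Emcn alone, against 9.14% of all genes. Without Ahnak KO kidney replicate 1, the library with high Xist counts, 0 of the 10 genes were called and their values ran from -0.26 for Kdr to 0.30 for Plvap. Most of the lean rested on WT kidney replicate 2. Without that library the median of the 10 was 0.03, 6 of the 10 were above 0, and Tie1, Emcn and Pecam1 were at 0.02, 0.04 and 0.05.

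The tissues differed far more than the genotypes, and the 10 genes did not move as a block. Emcn, Plvap, Ehd3 and Tie1 were lower in ureter than in kidney, by 2.88-, 3.08-, 3.98- and 1.49-fold, Cdh5 was 1.48-fold higher, and no call was made for Pecam1, Kdr, Flt1, Tek and Eng. The fit used all 6 libraries with tissue and genotype as terms. Of the 17557 genes tested, 22.3% were called lower and 20.3% higher in ureter, so 4 lower and 1 higher among 10 genes is to be read against a background in which 42.6% of genes were called. The median of the 10 log2 fold changes was -0.25, and that of all genes was -0.08.

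Ehd3 had the lowest value of the 10. Its level was 17.5 to 18.8 TPM in the 4 kidney libraries, 4.16 TPM in WT ureter and 2.96 TPM in Ahnak KO ureter. Its log2 fold change was -1.99 (SE 0.160, adjusted p = 0.000184). Plvap was at 108 to 151 TPM in kidney, 43.3 TPM in WT ureter and 26.6 TPM in Ahnak KO ureter, a log2 fold change of -1.62 (SE 0.223, adjusted p = 0.00174). Emcn was at 165 to 186 TPM in kidney, 45.3 TPM in WT ureter and 50.8 TPM in Ahnak KO ureter, a log2 fold change of -1.53 (SE 0.112, adjusted p = 0.000124). For these 3 genes no ureter library came near the lowest kidney library. They were called under each of the 17 alternative settings tried, with values of -2.27 to -1.81 for Ehd3, -2.03 to -1.26 for Plvap and -1.82 to -1.41 for Emcn.

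Of the TIE receptor genes, Tie1 was called and Tek was not, and the difference between them was not tested. Tie1 was at 48.9 to 63.6 TPM in kidney, 35.1 TPM in WT ureter and 25.2 TPM in Ahnak KO ureter, a log2 fold change of -0.57 (SE 0.159, adjusted p = 0.0273). The call was lost without Ahnak KO ureter (adjusted p = 0.214), without WT kidney replicate 1 (adjusted p = 0.0663) and without Ahnak KO kidney replicate 2 (adjusted p = 0.0597), and its value without Ahnak KO ureter was -0.35. Tek was at 33.4 to 47.5 TPM in kidney and at 31.4 and 31.8 TPM in ureter, with a log2 fold change of 0.09 (95% interval -0.21 to 0.38). For the VEGF receptors, Kdr was at 23.9 to 33.3 TPM in kidney and at 23.3 and 19.4 TPM in ureter, a log2 fold change of -0.08 (95% interval -0.40 to 0.24). Flt1 was at 8.33 to 11.5 TPM in kidney and at 6.64 and 4.77 TPM in ureter, a log2 fold change of -0.42 (95% interval -0.89 to 0.05, adjusted p = 0.133). Flt1 was called lower in 2 of the 17 alternatives. Pecam1 was called higher in 1, DESeq2, and Kdr, Tek and Eng were called in none. Eng was at 55.9 to 64.2 TPM in kidney and at 48.6 and 42.2 TPM in ureter, a log2 fold change of -0.04 (95% interval -0.27 to 0.20).

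Cdh5 and Pecam1, the junction genes among the 10 genes, were not lower in ureter by this test. Cdh5 was at 54.1 to 64.5 TPM in kidney, 74.5 TPM in WT ureter and 61.1 TPM in Ahnak KO ureter. On the TMM scale its levels were 100.02 to 119 CPM in kidney and 170.2 and 159 CPM in ureter, so the tissues overlapped in TPM and did not in TMM-scaled CPM. The log2 fold change was 0.56 (SE 0.106, adjusted p = 0.00662). Pecam1 was at 88.5 to 102 TPM in kidney and at 99.7 and 79.4 TPM in ureter, a log2 fold change of 0.27 (SE 0.105, adjusted p = 0.0834). Scaling by library size alone gave 0.27 for Cdh5 (adjusted p = 0.116) and -0.019 for Pecam1, and moved the median of all genes from -0.08 to -0.37. The distance from that median was 0.64 for Cdh5 and 0.35 for Pecam1 under both scalings, so the scaling moved all genes together. Without WT ureter the call for Cdh5 was lost (log2 fold change 0.47, adjusted p = 0.0515).

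**Figure D2:**
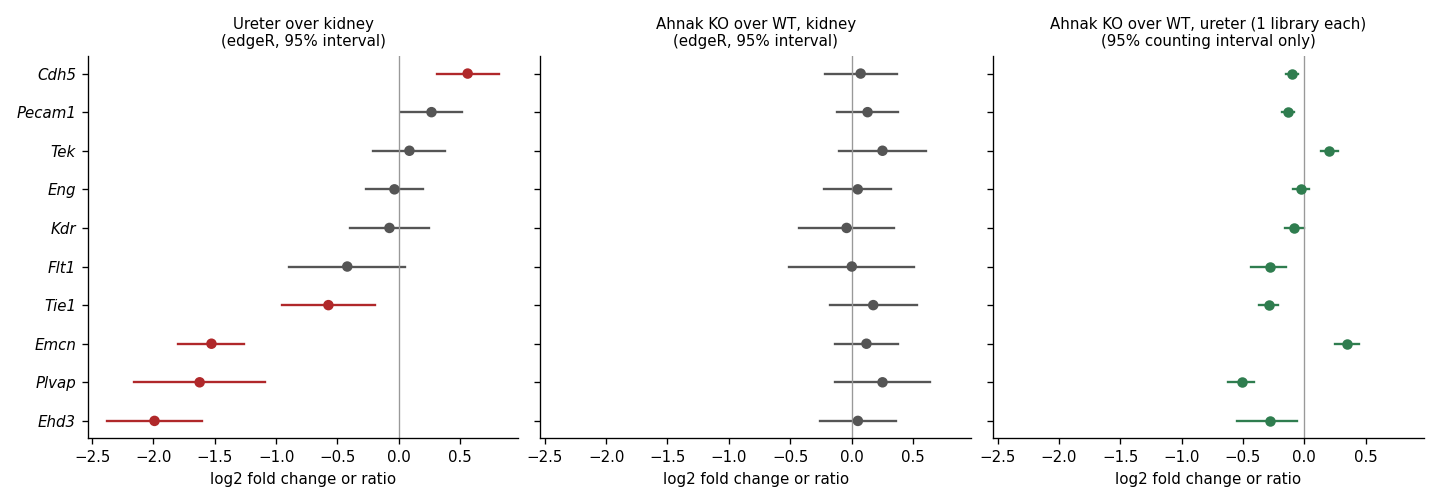
Log2 fold change of each gene for ureter over kidney and for Ahnak KO over WT kidney (edgeR, points with 95% intervals; red marks an adjusted p under 0.05) and log2 ratio of Ahnak KO over WT ureter (1 library each, counting intervals only). The tissue values ran from -1.99 for Ehd3 to 0.56 for Cdh5 (0.27 with library size alone), while the kidney genotype values stayed between -0.04 and 0.25.

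How far the tissues overlapped depended on the scale. In TPM both ureter libraries were below all 4 kidney libraries for 8 of the 10 genes, the exceptions being Pecam1 and Cdh5, and this held for 49.2% of all genes. In TMM-scaled CPM this held for 5 genes, Flt1, Tie1, Emcn, Plvap and Ehd3, against 31.9% of all genes. Both ureter libraries were above all kidney libraries for 2 genes, Pecam1 and Cdh5, against 27.3% of all genes. The TMM factors were 1.06 to 1.08 for kidney, 0.935 for WT ureter and 0.819 for Ahnak KO ureter.

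The make-up of the endothelial signal can be read within a library, where scaling cancels. The shares of a library add up to its whole, so smaller shares of some genes enlarge those of others. A larger share therefore need not mean a higher level. The summed level of the 10 genes was 612 to 731 TPM in kidney, 412 TPM in WT ureter and 344 TPM in Ahnak KO ureter. Emcn made up 25.4% to 27.0% of that sum in kidney and at most 14.8% in either ureter library. Plvap made up 17.6% to 21.5% in kidney and 10.5% and 7.74% in ureter, and Ehd3 2.56% to 2.86% in kidney and 1.01% and 0.861% in ureter. The share of Cdh5 was larger in ureter, with 8.08% to 8.86% in kidney and 18.1% and 17.8% in ureter. Pecam1 had 13.8% to 14.5% in kidney and 24.2% and 23.1% in ureter. Neither of these ranges overlapped between tissues. Tie1 kept a share of 7.96% to 9.06% in kidney and 8.51% and 7.32% in ureter. Kdr and Eng had somewhat larger shares in ureter, at 3.41% to 4.80% against 5.66% and 5.63% for Kdr and 8.46% to 9.13% against 11.8% and 12.3% for Eng. Tek had 5.21% to 6.49% in kidney and 7.62% and 9.24% in ureter. Flt1, which overlapped between tissues, had 1.17% to 1.88% in kidney and 1.61% and 1.39% in ureter. The TPM levels of Kdr, Eng and Tek were nevertheless lower in both ureter libraries than in every kidney library.

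**Figure D3:**
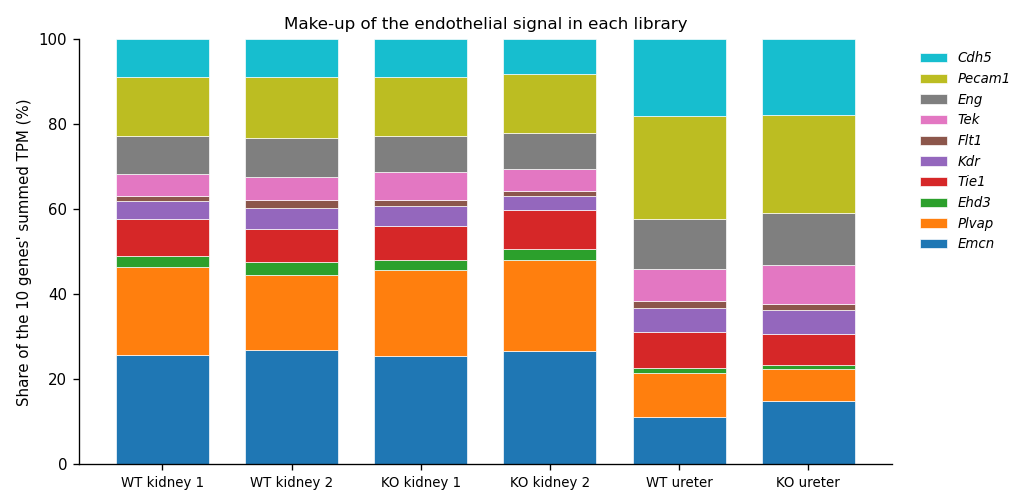
Share of each gene in the summed TPM of the 10 endothelial genes (y axis, 0 to 100%) in each library (x axis). Emcn, Plvap and Ehd3 together filled a smaller part of both ureter bars, and Cdh5 went from 8.08% to 8.86% in kidney to 18.1% and 17.8% in ureter. The shares add up to the whole bar, so a larger share need not mean a higher level.

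The ratio of each gene to Cdh5 gave the same values in another form. Cdh5 was chosen as the denominator after its values were seen, and as the gene with the highest ureter-over-kidney value among the 10 it fixes the direction of the other 9, so these ratios are descriptive. There were 2.88 to 3.28 Emcn per Cdh5 in kidney and 0.609 and 0.832 in WT and Ahnak KO ureter, in TPM. The geometric mean in kidney was 4.26 times that in ureter. That factor was 4.58 for Plvap, 5.91 for Ehd3 and 2.20 for Tie1, and it was lowest for Pecam1, at 1.23.

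In ureter the library labelled Ahnak KO was compared with the WT library, without replicates and without a test. The log2 ratio of Ahnak KO over WT was below 0 for 8 of the 10 genes, while 51.8% of all 16117 genes compared were below 0. None of the 10 passed a ratio of 2 in either direction, which 10.2% of all genes did (5.78% lower, 4.44% higher). Plvap had the lowest ratio, at -0.51 (95% counting interval -0.62 to -0.41), from 2576 counts in WT and 1044 in Ahnak KO ureter. It was followed by Tie1 at -0.29 (-0.37 to -0.21), Flt1 at -0.28 (-0.43 to -0.15) and Ehd3 at -0.28 (-0.55 to -0.06). Pecam1 (-0.13), Cdh5 (-0.10), Kdr (-0.08) and Eng (-0.02) were closer to 0. The 2 genes above 0 were Tek, at 0.20 (0.14 to 0.27), and Emcn, at 0.35 (0.25 to 0.45). Intervals cover counting error only and say nothing of the variation between animals. The median of the 10 ratios was -0.11 and that of all genes was -0.02. With library size alone, both medians shifted, to -0.31 and -0.20, and Tek was at 0.01 and Emcn at 0.16, so the same 2 genes remained above 0.

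Whether the genotype difference differed between tissues was tested as an interaction term, for which the spread came from the kidney pairs. Called genes were 0.108% of all genes, and none of the 10 was among them. Plvap had the lowest value, -0.77 (95% interval -1.496 to -0.04, unadjusted p = 0.0422, adjusted p = 0.380 by edgeR). It was the 1 gene of the 10 with an unadjusted p under 0.05, which 12.4% of all genes had. The value was below 0 for 9 of the 10 genes, against 50.5% of all genes, and Emcn, at 0.23, was the exception. In simulated data of dispersion 0.05, this test recovered 0% of changes of 1 and 43% of changes of 2 on the log2 scale. The simulation was not matched to the 10 genes, whose standard errors were 0.19 to 0.38, so it does not give the power for them. A missing call does not show that the genotype differences were equal.

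Other vascular genes were compared between tissues in the same fit, and their counts are to be read against the same 22.3% of all genes called lower and 20.3% called higher. Of 26 other endothelial surface and junction genes, 7 were called lower and 7 higher in ureter, with a median of 0.09. Vwf, which encodes von Willebrand factor, stored in the granules of endothelial cells of larger vessels, was at 1.43 to 2.13 TPM in kidney, 18.3 TPM in WT ureter and 7.10 TPM in Ahnak KO ureter, a log2 fold change of 3.17 (SE 0.305, adjusted p = 0.000396). Sele, the leukocyte adhesion receptor E-selectin, was at 0 to 0.253 TPM in kidney and at 16.4 and 12.3 TPM in ureter. Both genes were higher in each ureter library than in any kidney library. Jam2 (log2 fold change 1.05) and Gpihbp1 (1.03) were also called higher, as was Cd34 (0.89). Esm1, a secreted proteoglycan of sprouting tip cells, was lower, at 9.29 to 14.4 TPM in kidney, 1.66 TPM in WT ureter and listed at 0 in Ahnak KO ureter. Adgrl4 (log2 fold change -1.10) and Nos3, the endothelial nitric oxide synthase (-0.76), were lower as well. Cldn5, a tight junction gene of endothelium, was at 70.2 to 115 TPM in kidney and 77.4 and 80.7 TPM in ureter, a log2 fold change of 0.14 (adjusted p = 0.565).

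Among ligands and co-receptors of the VEGF and angiopoietin pathways, 2 of 14 genes were called lower and 4 higher, with a median of 0.20. The 6 calls among 14 are close to the 42.6% called among all genes. Angpt1, the activating ligand of the Tek product, was at 13.9 to 18.1 TPM in kidney and at 4.23 and 2.58 TPM in ureter, a log2 fold change of -1.81 (SE 0.219, adjusted p = 0.00101). Thus the Tek ligand was lower in ureter while no difference was detected for Tek itself. Angpt2, the context-dependent antagonist, had a value of -0.59 (adjusted p = 0.0599). Vegfd was higher (1.67), as was Nrp1 (0.41), a co-receptor of Kdr, and Flt4, the VEGF receptor of lymphatic endothelium, was lower (-0.65). Vegfa, the main ligand of Kdr and Flt1, was at 130.0 to 206 TPM in kidney, 172 TPM in WT ureter and 55.2 TPM in Ahnak KO ureter, and its tissue value was -0.34 (adjusted p = 0.460). In the ureter pair Vegfa had a log2 ratio of -1.44, from 16340 and 3475 counts, while Kdr was at -0.08 and Flt1 at -0.28. Among 13 genes of endoglin and BMP signalling, 1 was lower (Smad5, -1.18) and 6 higher, Id1, a target gene of this pathway, with the largest value at 1.82.

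Of 13 endothelial transcription factors, 5 were called lower and 2 higher, where 22.3% and 20.3% of all genes were. Sox17, a factor of arterial endothelium that other cells also express, was at 16.4 to 20.8 TPM in kidney and at 3.83 and 5.73 TPM in ureter (log2 fold change -1.71). Foxc2 (-1.83) was lower too, and Gata2 (2.75) was higher, at 24.4 to 33.6 TPM in kidney and 181 and 136 TPM in ureter. Erg, an ETS factor of endothelium, had a value of -0.28 (adjusted p = 0.210). Of 8 arterial genes, 2 were lower, Cxcr4 (-2.19) and Hey1 (-1.37), and 5 were higher, among them Bmx (2.18) and the connexin genes Gja5 (1.52) and Gja4 (1.03). Of 4 venous genes, 1 was lower and Ackr1 (3.13) was higher. Several of these genes are expressed outside the endothelium in kidney or ureter, and the part of other cell types in their values was not tested.

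**Figure D4:**
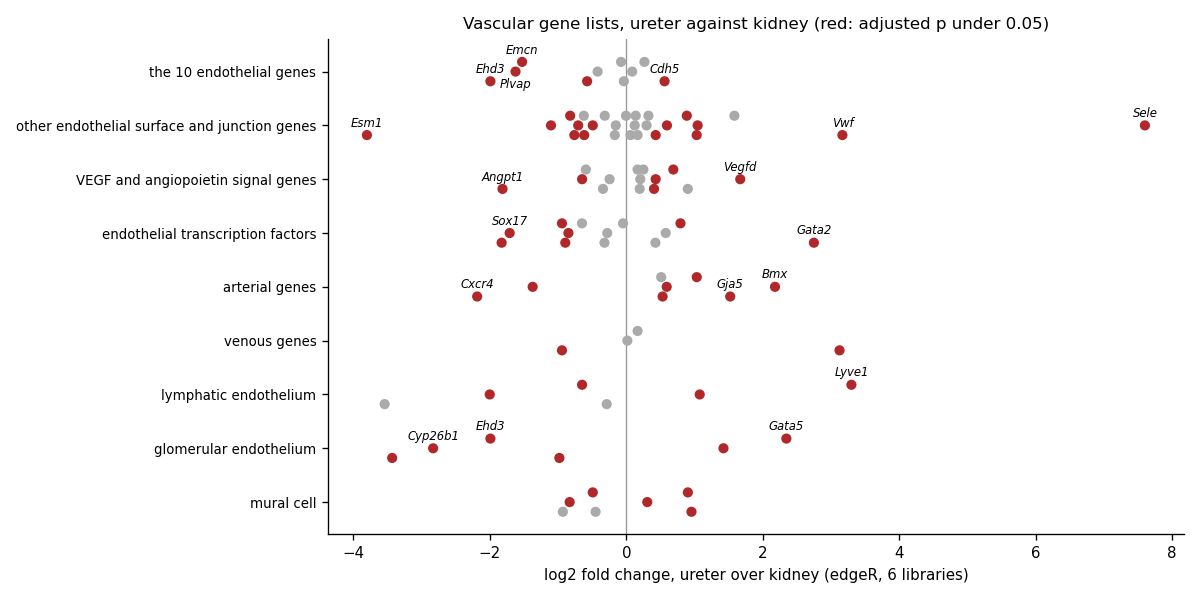
Log2 fold change for ureter over kidney (x axis) of each gene tested in 9 vascular gene lists (rows; points are genes, spread vertically for legibility, red where the adjusted p was under 0.05). Every list held genes on both sides of 0, from Esm1 at -3.80 to Sele at 7.60 among the other surface and junction genes.

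For glomerular endothelium, 6 genes were listed, including Ehd3. Ehd3, Cyp26b1 (-2.83), Sost (-3.43) and Plat were lower in ureter, and Gata5 (2.35) and Tbx3 (1.42), which encode transcription factors, were higher. Podocyte genes, which share the glomerulus with these cells, were lower in 6 of 7 cases, with summed levels of 390.3 to 474 TPM in kidney and 39.6 and 45.1 TPM in ureter, and the part of glomerular content in the Ehd3 value was not tested. Of 6 lymphatic genes, Lyve1 (3.30), which macrophages can also express, and Pdpn (1.08) were higher, Flt4 and Reln were lower, and Prox1, the defining transcription factor, had a value of -0.29 (adjusted p = 0.721).

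Markers of other cells that express some of the 10 genes were checked too, since platelets and leukocytes carry PECAM1. The summed level of 7 platelet genes was 35.4 to 42.1 TPM in kidney, 119 TPM in WT ureter and 194 TPM in Ahnak KO ureter. Of 6 platelet genes tested, 3 were called higher and 0 lower. Pf4 made up most of the sum (2.37), Gp1bb was at 2.73 to 3.65 TPM in kidney and 27.6 and 11.2 TPM in ureter (2.88), and Gp1ba was at 0.348 TPM or less in every library. Itga2b, a defining platelet gene, was at 2.46 to 2.92 TPM in kidney and 3.06 and 1.59 TPM in ureter. The summed level of 9 leukocyte genes was 118 to 182 TPM in kidney and 248 and 353 TPM in ureter, with 5 of 9 called higher. Ptprc, the common leukocyte antigen, was lower in ureter (-0.84), at 2.03 and 2.09 TPM. It was at 2.99 and 3.67 TPM in WT kidney and at 6.81 and 7.52 TPM in Ahnak KO kidney. Its kidney log2 fold change between genotypes was 1.14 (edgeR, unadjusted p = 0.000975, adjusted p = 0.618). The platelet and leukocyte sums and the Pecam1 share were all higher in ureter than in kidney. The level of Pecam1 itself overlapped between tissues in TPM, at 88.5 to 102 in kidney and 99.7 and 79.4 in ureter. Its share also depends on the levels of the other genes in the sum, such as Emcn and Plvap. Within the ureter pair both sums were higher in Ahnak KO, while the Pecam1 share was 24.2% in WT and 23.1% in Ahnak KO. The part of platelets and leukocytes in that share was not tested. Mural cells, which sheathe vessels, had 2 of 7 genes lower, among them Pdgfrb (-0.83), and 3 higher. Smooth muscle genes were higher in 8 of 8 cases, and Acta2 was at 239.6 to 318 TPM in kidney and 2309 and 1623 TPM in ureter.

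In kidney, no gene of any of these lists was called between genotypes, and the medians of the vascular lists ran from 0.01 for arterial genes to 0.16 for the other surface and junction genes. The median of the 10 genes, 0.10, lay within that range. Medians of the lists of other cells ran from 0.03 for urothelium to 0.14 for smooth muscle, apart from -0.26 for red blood cell genes. The likeness was thus not particular to vascular genes. Over the 6 libraries, the genes outside the 10 whose levels most resembled the mean of the 10, by Pearson correlation of log2(TPM + 1) among 11122 genes, were Ppp1r21 (r = 0.998), Mex3b (0.998) and Ap1s1 (0.994). The 6 libraries come from 2 tissues, so the likeness is given as a description.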

How the data were processed

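RNA-seq libraries of PN1 mouse kidney (2 WT, 2 Ahnak KO) and ureter (1 WT, 1 Ahnak KO) were grouped by the labels of genotype and tissue. The authors deposited 1 table with an estimated count, FPKM and TPM for each gene and library. Estimated counts deposited by the authors were whole numbers and not normalized, and the deposited FPKM and TPM were scaled by gene length and library. The study's methods name a stranded mRNA kit, Cutadapt, STAR, Cufflinks, DESeq and GRCm39, while the submitters' processing notes name Trimmomatic 0.38, HISAT2 2.1.0, StringTie 1.3.4b and edgeR, and the table is named for mm10. Which of them made the table is not given in the sources used here. Gene numbers matched GRCm38.p6 RefSeq for 24462 genes, and the symbols of 27 genes, written as dates in the table, were repaired from their gene numbers.

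Counts were tested with edgeR 4.0.16 in R 4.3.3 (TMM, filterByExpr, quasi-likelihood test, Benjamini-Hochberg adjustment over all genes tested). The kidney fit used 4 libraries and genotype alone, the tissue fit 6 libraries with tissue and genotype, and the interaction 4 groups with 2 residual degrees of freedom. Standard errors were approximated from each log2 fold change and its F statistic. The methods state biological replicates, the labels name no animals, and p-values measure the spread between these samples. The ureter pair was compared by log2(CPM + 0.5) with TMM factors, exact (Clopper-Pearson) 95% intervals of counting error, over genes that reached 10 counts in either library. Precision followed depth, and 3 counts stood for 0.0454 to 0.0824 CPM. Fits were tested on simulated data of dispersion 0.05, where the kidney test recovered 16.5% of changes of 1 on the log2 scale and 99.5% of changes of 2, and the tissue test 37.5% and 100%.

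All 10 genes were named whatever their values. From each gene list, up to 4 genes in each direction with an adjusted p under 0.05 and a fold over 2 could be named, beside a fixed set of 20 genes. Plat, Xist and the ratio to Cdh5 were added after values were seen. The 10 genes and the lists were chosen with earlier results of these data known. The same-numbered kidney libraries did not deviate together (correlation -0.19, 2 pairs). Alternatives used DESeq2 1.42.0, limma 3.58.1 on log2(FPKM + 1) and log2(FPKM + 0.1), other scalings and filters, a replicate block and leaving out each library. For tissue they also included the difference within each genotype, taken from a fit of all 6 libraries. Of 7 red blood cell genes 1 was called lower and 1 higher in ureter, and they are not described further, since counts of near-identical globin genes shifted between copies. Python 3.11.15, numpy 2.4.6, pandas 2.3.3, scipy 1.17.1 and matplotlib 3.10.9 were used for the rest.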

Additional observations from a re-analysis of the deposited data

How the results depend on the processing

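In kidney, 2 genes were called, against 44 with DESeq2, 1 with at least 10 counts in every library, 0 with limma on log2(FPKM + 1) and on log2(FPKM + 0.1), and 3 to 87 when 1 library was left out (3 without WT kidney replicate 2, 87 without Ahnak KO kidney replicate 2, 46 without Ahnak KO kidney replicate 1, 10 without WT kidney replicate 1). The replicate block gave 0 calls and a crossed pairing, tried after the data were examined, 1. The block changed no call of the 10 genes, and the shared numbers were not shown to pair the libraries. Near 0, Flt1 was at -0.016 with library size alone, -0.0012 with no filter, -0.0096 and -0.011 with limma, and -0.21 to 0.25 when 1 library was left out. Over the same omissions Kdr ran from -0.26 to 0.15, Cdh5 from -0.038 to 0.19, Ehd3 from -0.00047 to 0.10 and Eng from -0.045 to 0.15.

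Between tissues, 3912 genes were lower and 3562 higher. With library size as the scale these were 6050 and 2354, and limma called 6299 lower on log2(FPKM + 1) and 6508 on log2(FPKM + 0.1). The count of the 10 genes called higher was 1, against 2 with DESeq2 and 0 with library size alone and with both limma fits. It was unchanged when 1 kidney library was left out. Pecam1 was at -0.019 with library size alone and -0.033 and -0.034 with limma, and Tek at -0.20, -0.19 and -0.20. Leaving out 1 library gave -0.16 to 0.019 for Kdr and -0.084 to 0.0017 for Eng. The tissue difference was also taken within each genotype, from a fit of all 6 libraries with 4 groups. Within WT it was 0.0012 for Eng and -0.35 for Tie1, and within Ahnak KO it was 0.47 for Cdh5, with 1 ureter library in each.

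The interaction called 19 genes, 476 with DESeq2, 0 with either limma fit, and 4 to 270 when 1 kidney library was left out. It could not be fitted without a ureter library. Over those omissions it ran from -0.23 to 0.19 for Kdr, -0.19 to 0.13 for Tek and -0.17 to 0.029 for Eng. In ureter, 931 genes were lower and 715 higher past a ratio of 2. With log2(CPM + 0.1) there were 1638 and 1137, with FPKM 1840 lower and with TPM 2001 lower. None of the 10 genes passed that ratio under any of the 7 alternatives. With 1 library per genotype in ureter, variation between animals is unknown, and the cause of these shifts was not tested.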

Other observations

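Some other vascular genes had larger ratios in the ureter pair than any of the 10 endothelial genes. Past a ratio of 2 and lower were 2 of 26 other surface and junction genes, 2 of 14 VEGF and angiopoietin genes and 1 of 8 arterial genes, against 5.78% of all genes. In each of these lists 0 genes were past it and higher, against 4.44% of all genes. Of 8 arterial genes 7 had a ratio of Ahnak KO over WT below 1, by the labels, with a median log2 ratio of -0.58. Of 14 VEGF and angiopoietin genes 11 were lower, with a median of -0.39. Among the other vascular lists, medians ran from -0.39 for glomerular endothelium to 0.007 for venous genes. The 26 other surface and junction genes had a median of -0.06, with 14 of them lower. Over all genes compared, 51.8% were below 1 and the median was -0.02. Vwf was at 4761 counts in WT and 1220 in Ahnak KO ureter (log2 ratio -1.17), and Nos3 at 1001 and 389 counts (-0.56). Sox17 (0.77), Cd34 (0.50), Cldn5 (0.24) and Erg (0.24) had ratios above 0, so endothelial genes lay on both sides. Prox1, the lymphatic transcription factor, was at 156 and 14 counts, while Lyve1 had a ratio of 0.07. Pf4, a platelet gene that macrophages can also express, had a ratio of 1.18 and Itga2b one of -0.67, and 8 of 9 leukocyte genes were higher, with a median of 0.47. There was 1 library per genotype, and none of these ratios was tested.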
